A study of Mus musculus with 4 samples.

Results

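Histone cluster genes were taken as the protein-coding genes of the GENCODE annotation of mouse genome build mm9 whose symbols begin with Hist1h, Hist2h, Hist3h or Hist4h. This rule found 67 genes of 22367 gene entries. The Hist1 cluster on chromosome 13 held 55 of them, Hist2 on chromosome 3 held 9, Hist3 on chromosome 11 held 2 and Hist4 on chromosome 6 held 1. By product, 6 genes encode the linker histone H1, 19 encode H2A, 18 encode H2B, 11 encode H3 and 13 encode H4.

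These genes supply the histones that package new DNA in S phase. They lack introns as a rule, lie close together, and give mRNAs that end in a conserved stem-loop in place of a poly(A) tail. RYBP is a subunit of non-canonical Polycomb repressive complex PRC1, whose RING1B subunit attaches ubiquitin to histone H2A in chromatin, and it is often found at CpG-rich promoters.

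RYBP occupancy was measured by chromatin immunoprecipitation and sequencing (ChIP-seq) in wild-type FLK1+ mesoderm, the population that gives rise to blood and vessels, sorted at day 3.75 from embryoid bodies made from C57Bl/6 X Sv129 embryonic stem cells. There were 2 RYBP ChIP samples, which the series design describes as coming from separate differentiations, precipitated with an antibody against DEDAF, another name of RYBP, and 2 input samples without antibody, which were not analysed here. All cells were wild type and grown in culture, and cells lacking RYBP were not analysed here as a control for the antibody. A list of peaks cannot show the mRNA markers of mesoderm, so the cell type was taken from the labels, and p-values between conditions were not possible with 1 group.

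The files held 14794 peaks for replicate 1, 18154 for replicate 2 and 22409 merged regions, and the merged list was the union of both lists. Each peak has a fold enrichment, the ratio of the ChIP pile-up to the local background, and a q-value, the p-value after correction over the genome. A gene was called occupied if a peak overlapped the gene or 1 kb on either side by at least 1 bp, and its value was the highest fold enrichment among those peaks. Neighbouring histone genes often shared a peak, so that genes were not independent observations.

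A merged RYBP region lay at 57 of the 67 histone cluster genes (85.1%), beside 56.1% of all protein-coding genes. Replicate 1 had a peak at 43 of them (64.2%, against 42.9% of all genes) and replicate 2 at 52 (77.6%, against 52.7%). Both replicates had a peak at 38 histone genes (56.7%), against 39.6% of all genes. With only peaks of −log10 q of at least 2, this count was 23 (34.3%), against 29.9% of all genes. A further 14 genes had a peak in replicate 2 alone, 5 in replicate 1 alone and 10 in neither.

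The gap to the rest of the genome largely closed when the comparison was limited to genes with CpG-rich start sites. A start site was called CpG-rich when it held at least 3 CpG dinucleotides per 100 bp within 500 bp on each side. Of the histone genes, 65 (97.01%) met this mark, against 56.3% of all genes. Among CpG-rich start sites of the whole annotation, 83.3% of genes had a merged region and 61.1% a peak in both replicates. The CpG-rich histone genes stood at 56 of 65 (86.2%) and 38 of 65 (58.5%). Occupancy of the histone genes was therefore near the level of CpG-rich genes in general, with CpG content not matched beyond this mark.

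Enrichment was moderate. At the 38 genes with peaks in both replicates, the median fold enrichment was 3.38 in replicate 1 and 4.15 in replicate 2, a mean of 3.77 ± 0.544 (SD, n = 2). The 8862 protein-coding genes with peaks in both had medians of 3.57 and 4.11, a mean of 3.84 ± 0.382 (SD, n = 2). The histone median was thus below that of all such genes in replicate 1 and slightly above it in replicate 2, so the direction differed between replicates. Histone genes ranged from 2.80 to 4.28 in replicate 1 and from 3.22 to 5.56 in replicate 2, and 34 of 38 had the higher value in replicate 2. Over all genes with peaks in both, the maxima were 11.3 and 12.5. The median −log10 q at the same 38 genes was 2.27 and 3.57, below the medians of 3.15 and 4.23 over all genes with peaks in both.

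**Figure D1:**
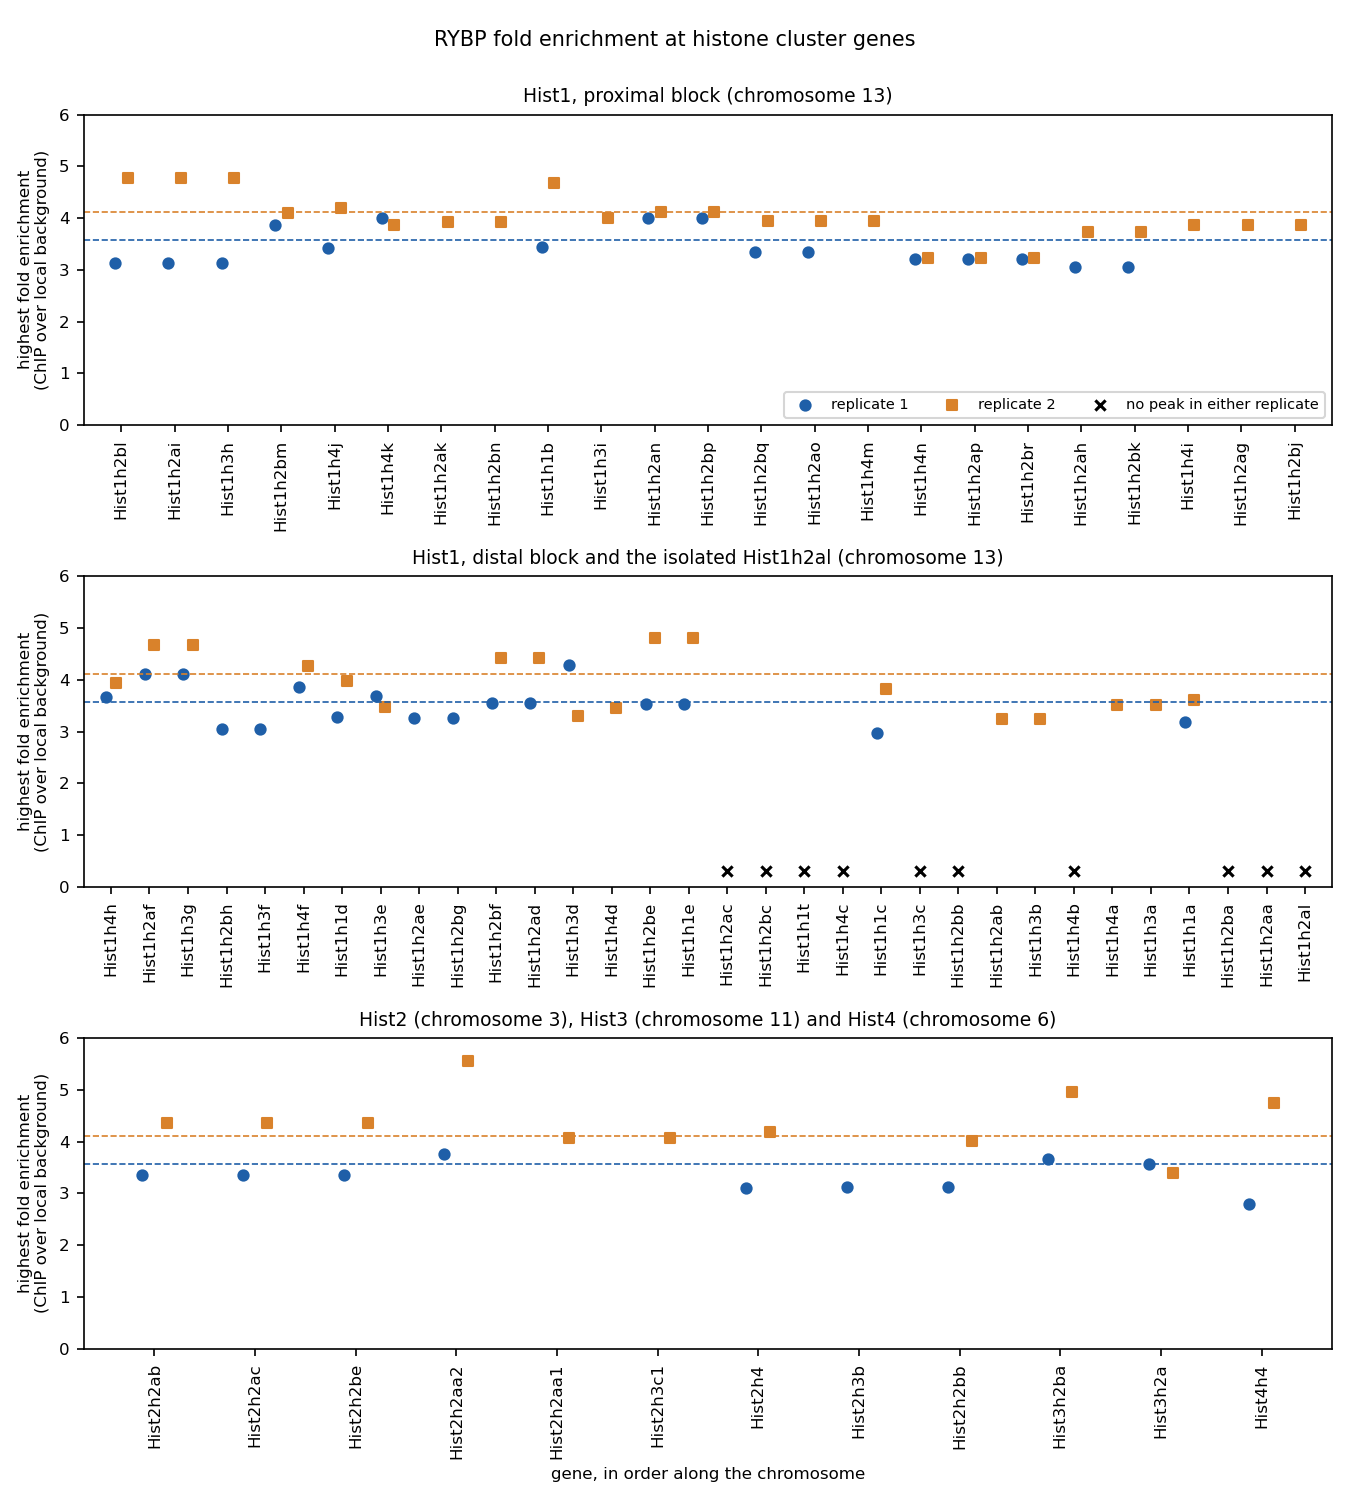
Highest RYBP fold enrichment (ChIP over local background, linear axis from 0) at each of the 67 histone cluster genes in order along the chromosomes, with circles for replicate 1, squares for replicate 2 and crosses for genes with no peak in either. Values lie between 2.80 and 5.56, and the 10 crosses are all in the panel of the distal Hist1 block and the isolated Hist1h2al.

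Histone genes are in part repetitive, which can affect where reads are placed. The study's aligner setting dropped reads that matched more than 2 places, so the share of 37-base words (the read length) with more than 2 exact copies in the genome was computed for each gene with 1 kb on each side. The median share was 15.2% and ranged from 0.104% at Hist1h1t to 39.0% at Hist1h4m. Within the gene bodies alone the median was 43.3%. Around the start site, 54 of the 67 genes (80.6%) had at least 10% of such words, against 11.7% of all genes. The words describe single exact reads and do not model read pairs or mismatches.

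The 23 histone genes with under 10% repeated words had a merged region at 17 and peaks in both replicates at 15, and the 44 genes above that mark at 40 and 23. All 5 genes with a peak in replicate 1 alone and 12 of the 14 with a peak in replicate 2 alone were among these 44 genes. The 23 genes included 3 testis-type genes, Hist1h1t, Hist1h2aa and Hist1h2ba, none of which had a peak. The other 20 had a merged region at 17 (85%) and peaks in both replicates at 15 (75%). Genes with peaks in both replicates had a median of 11.8%, genes with a peak in replicate 1 alone 20.7%, in replicate 2 alone 19.7%, and genes without a peak 8.18%. Peaks missing from 1 replicate were thus found mainly where sequence was repeated. The part of repeated sequence in these counts was not tested.

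**Figure D2:**
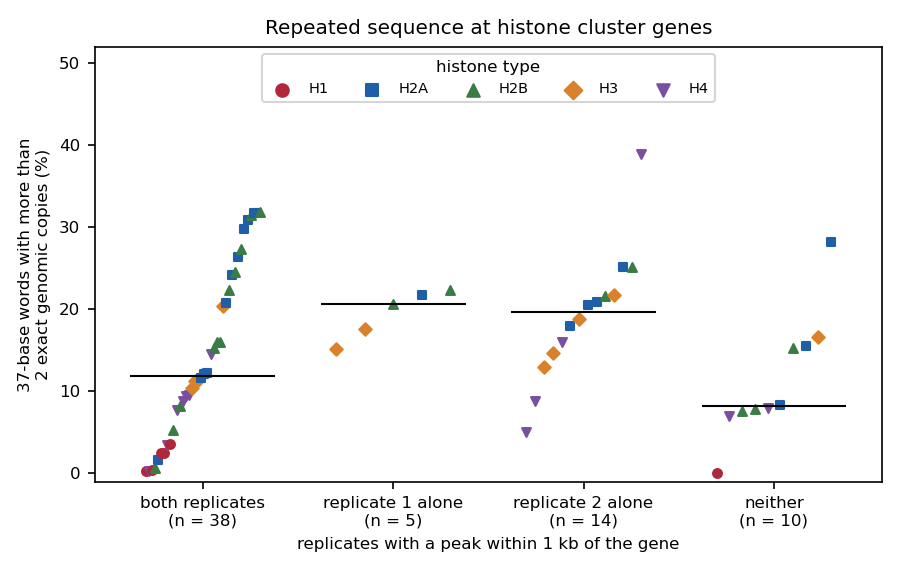
Share of 37-base words with more than 2 exact genomic copies (percent, y axis) in the window of each histone cluster gene, grouped by the replicates in which the gene had a peak (x axis), with symbols for histone type. Genes with a peak in 1 replicate alone lie mostly above 10%, with medians of 20.7% and 19.7%, whereas genes without a peak have a median of 8.18%.

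Reads with exactly 2 matches were kept, so a peak over a duplicated gene can hold reads of its copy. At 8 histone genes at least 50% of the words in the gene with 1 kb on each side had a copy elsewhere. These were Hist1h2bq, Hist1h2ao and Hist1h4m, their near-identical counterparts Hist1h2br, Hist1h2ap and Hist1h4n, and the pair Hist2h2aa1 and Hist2h2aa2. Shares at the 8 genes ran from 66.0% to 100%, and values at each are uncertain between the copies. Without them, 49 of 59 genes (83.1%) had a merged region and 32 (54.2%) peaks in both replicates. Within the gene body alone, other genes also passed 50%, such as Hist1h2bl at 88.1% and Hist1h3e at 81.25%. They stayed among the 59. Of the body words, 79.1% at Hist1h2bl and 31.75% at Hist1h3e had more than 2 copies, and reads matching those words were dropped. Only words with exactly 2 copies carry the limit of reads shared with a copy.

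The chromosome 13 cluster falls into separate blocks, and occupancy differed in count between them. The proximal block, from 21807632 to 22135545, held 23 genes, and all 23 had a merged region. Replicate 2 had a peak at each of the 23 and replicate 1 at 16. The distal block, from 23622919 to 24026720, held 31 genes, of which 22 had a merged region, 17 a peak in replicate 1, 18 a peak in replicate 2 and 13 a peak in both. All 9 Hist2 genes, both Hist3 genes and Hist4h4 had a merged region, with peaks in both replicates at 6, 2 and 1. Hist1h2al, an H2A gene far from the rest of the cluster at 51298057 to 51298434, had none, and its nearest merged region was 1393 bp away.

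Repeated sequence differed between the blocks as well, with a median of 21.7% in the proximal and 11.3% in the distal block. Among genes with under 10% repeated words, 4 of 4 proximal and 8 of 14 distal genes had a merged region. The 14 distal genes included the 3 testis-type genes, none of which had a region. The proximal block was also the richer in CpG, with medians of 7.29 against 5.39 per 100 bp. Their part in the difference between blocks was not tested.

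By histone type, a merged region was present at 5 of 6 H1 genes, 16 of 19 H2A genes, 15 of 18 H2B genes, 10 of 11 H3 genes and 11 of 13 H4 genes. These shares lay within 83.3% and 90.9%. Types differed more in how many genes were called in both replicates. Peaks in both were present at 5 of the 6 H1 genes, 11 of the 19 H2A genes, 11 of the 18 H2B genes, 7 of the 13 H4 genes and 4 of the 11 H3 genes. Repeated words were fewest at H1, with a median of 1.42%, and reached 8.83% at H4, 15.2% at H3, 18.4% at H2B and 20.9% at H2A. With so few genes of each type, some of them sharing a peak, no order of the types was drawn.

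**Figure D3:**
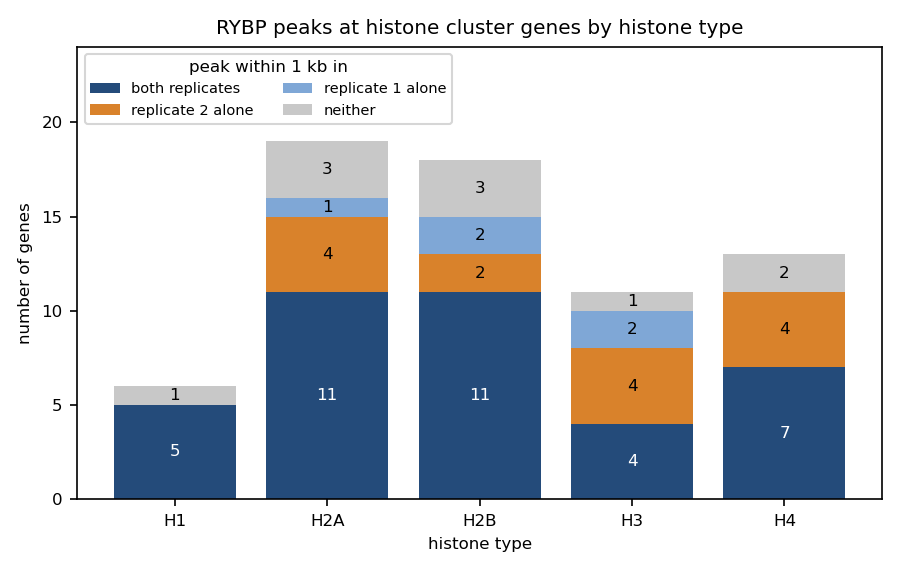
Number of histone cluster genes of each type (x axis) with a RYBP peak within 1 kb in both replicates, in replicate 1 alone, in replicate 2 alone or in neither, as stacked bars from 0. H2A and H2B have 11 genes each with peaks in both replicates, H4 has 7, H1 has 5 and H3 has 4.

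The linker histone genes had the lowest median of repeated words among the types, and each of them was called in both replicates or in neither. H1 binds the DNA between nucleosomes and the gene family includes somatic and testis forms. Hist1h1b, which encodes H1.5 and is the only H1 gene of the proximal block, was enriched by 3.45 (replicate 1) and 4.68 (replicate 2), a mean of 4.06 ± 0.873 (SD, n = 2). Hist1h1e, which encodes H1.4, had 3.54 and 4.81. Hist1h1d, for H1.3, had 3.28 and 3.98. Replicate 2 was the higher at each of these genes.

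Hist1h1c, for H1.2, had 2.97 and 3.83, and Hist1h1a, for H1.1, had 3.18 and 3.61. All 5 somatic H1 genes therefore had peaks in both replicates, with means over the replicates from 3.40 to 4.18. The exception was Hist1h1t, the testis-specific H1 gene at 23787680 to 23788588, with no peak in either replicate and its nearest merged region 13806 bp away. Its start site had 2.90 CpG per 100 bp, the lowest value among the genes without a region, and 0.104% repeated words.

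H2A and H2B genes are commonly arranged head to head, so that both are transcribed away from a shared spacer. Of the 37 H2A and H2B genes, 24 formed 12 such pairs, with spacers of 167 to 305 bp. A merged region overlapped the spacer of 9 pairs, and peaks of both replicates did so at 5. Peaks were as frequent outside this arrangement. Of the paired H2A genes 10 of 12 had a merged region and of the others 6 of 7, and for H2B the counts were 10 of 12 and 5 of 6.

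The highest values among core histone genes of chromosome 13, ranked by the lower of their replicate values, belonged to Hist1h2af and Hist1h3g. These genes, for H2A and H3, lay under the same merged region at chr13:23625550-23628032. The replicates gave it fold enrichments of 4.12 and 4.68, a mean of 4.40 ± 0.394 (SD, n = 2), with −log10 q of 3.74 and 5.27. Peaks of both replicates covered 100% of each gene body. The pair Hist1h2an and Hist1h2bp followed with 3.99 and 4.12, a mean of 4.06 ± 0.0883 (SD, n = 2), from a region at chr13:21878986-21879853 that spanned their 242 bp spacer. Hist1h4k, an H4 gene, had 3.996 and 3.87.

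The bases before these starts are shown to set occupied promoters beside an unoccupied one. Capitals mark the letters CCAAT, the core of the site of the NF-Y factor, TATAAA, the TATA box, and ATTTGCAT, the octamer bound by OCT1 and known for H2B promoters, each sought on both strands and so shown in capitals also where its reverse complement was read. Hist1h2af was read at chr13:23625525-23625744 (plus strand), Hist1h3g at chr13:23627041-23627260 (plus strand) and Hist1h2an at chr13:21879118-21879337 (minus strand, the spacer with Hist1h2bp). For these 3 genes the 30 bases next to the annotated start were left out. The last sequence, at chr13:23775818-23776067 (minus strand), is the whole 250 bp spacer of Hist1h2ac and Hist1h2bc, neither of which had a peak. All are mm9, 5′ to 3′ in the direction of the named gene.
Hist1h2af: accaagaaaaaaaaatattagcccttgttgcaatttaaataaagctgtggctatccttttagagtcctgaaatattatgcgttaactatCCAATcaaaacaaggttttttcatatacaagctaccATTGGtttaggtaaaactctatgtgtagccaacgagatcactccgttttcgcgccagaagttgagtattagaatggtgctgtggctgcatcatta
Hist1h3g: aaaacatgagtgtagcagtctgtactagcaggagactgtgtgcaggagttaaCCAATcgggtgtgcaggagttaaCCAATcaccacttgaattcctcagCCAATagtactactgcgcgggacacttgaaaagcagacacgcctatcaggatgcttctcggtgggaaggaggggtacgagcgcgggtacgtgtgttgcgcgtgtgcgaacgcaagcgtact
Hist1h2an: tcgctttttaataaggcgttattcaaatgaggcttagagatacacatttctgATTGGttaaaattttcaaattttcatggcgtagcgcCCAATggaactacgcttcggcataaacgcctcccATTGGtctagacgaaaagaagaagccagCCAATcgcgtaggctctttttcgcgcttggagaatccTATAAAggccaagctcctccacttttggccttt
Hist1h2ac: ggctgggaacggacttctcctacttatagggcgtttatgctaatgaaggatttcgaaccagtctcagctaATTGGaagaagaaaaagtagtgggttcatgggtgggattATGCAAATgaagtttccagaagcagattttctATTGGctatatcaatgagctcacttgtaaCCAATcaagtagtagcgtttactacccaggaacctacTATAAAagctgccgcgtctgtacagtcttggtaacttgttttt

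CCAAT was found in each of these 4 windows. It was present 2 times before Hist1h2af, 3 times before Hist1h3g, 4 times before Hist1h2an and 3 times in the spacer of Hist1h2ac and Hist1h2bc. TATAAA was found in the last 2 of these windows, and ATTTGCAT in the unoccupied spacer alone.

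Over the 250 bases before each start, CCAAT was present at 57 of the 67 histone genes (85.1%) and 35.0% of all genes. It was found at all 6 H1, 19 H2A and 18 H2B genes, at 10 of the 11 H3 genes and at 4 of the 13 H4 genes. TATAAA was present at 33 histone genes (49.3%) and 12.3% of all genes. ATTTGCAT was present at 15 (22.4%) and 1.62% of all genes, namely at 8 H2B and 7 H2A genes, which in part share a spacer. By occupancy, CCAAT was found at 32 of the 38 genes with peaks in both replicates and 9 of the 10 without a peak, TATAAA at 17 and 5, and ATTTGCAT at 7 and 5. The share with an octamer was thus lower among occupied genes, over few genes and shared spacers, and was not tested.

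The widest merged regions lay over groups of 3 genes each in the proximal block. The widest, 3049 bp at chr13:21923394-21926442, reached from Hist1h4n across Hist1h2ap to Hist1h2br, and both replicates gave it 3.22. The next, 2802 bp at chr13:21807154-21809955, covered Hist1h2bl, Hist1h2ai and Hist1h3h with 3.13 in replicate 1 and 4.78 in replicate 2. The third, 2794 bp at chr13:21901306-21904099, had 3.35 and 3.94 at Hist1h2bq and Hist1h2ao. Hist1h4m, at its far end, was reached by the replicate 2 peak alone. The widest and the third region lie on the duplicated copies named above. At their 6 genes, taken with 1 kb on each side, 91.9% or more of the words had another copy.

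Replicate 2 alone had peaks at several other proximal genes. Hist1h2ak and Hist1h2bn shared a peak of 3.92, Hist1h3i had 4.01, and Hist1h4i, Hist1h2ag and Hist1h2bj had 3.87. These values lay within the 3.22 to 4.78 that replicate 2 gave at proximal genes called in both. Hist1h2bm, which was called in both, had 3.86 and 4.10, and Hist1h4j had 3.42 and 4.19. Hist1h2ah and Hist1h2bk shared 3.05 and 3.73. At Hist1h2ag and Hist1h2bj a separate region overlapped part of each gene, and the 264 bp spacer between them held no peak.

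In the distal block, occupied and unoccupied genes lay in runs. The genes from Hist1h4h at 23622919 to Hist1h1e at 23714371 all had a merged region. Among those with peaks in both replicates, Hist1h4h had 3.67 and 3.93, Hist1h4f 3.86 and 4.26, and Hist1h3e 3.69 and 3.48. The pair Hist1h2bf and Hist1h2ad had 3.55 and 4.43. Hist1h3d had 4.28 in replicate 1, the highest value of that replicate, and 3.30 in replicate 2, so that its order among the genes depended on the replicate.

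A peak in replicate 1 alone was found at Hist1h2bh and Hist1h3f, which shared 3.06, and at the pair Hist1h2ae and Hist1h2bg, which shared 3.26. Replicate 2 alone had 3.45 at Hist1h4d, 3.25 at Hist1h2ab and Hist1h3b, and 3.52 at Hist1h4a and Hist1h3a. At Hist1h3f, Hist1h3b and Hist1h3a the region lay in the flank and not over the gene, at 658, 703 and 223 bp. Hist1h2be was counted as occupied, with 3.54 and 4.81, through a peak over Hist1h1e. Its annotated body is 37383 bp long and reaches to that peak, whereas its own coding part had none.

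The 10 genes without a merged region were all on chromosome 13. A run of 4 began with the pair Hist1h2ac and Hist1h2bc and went on to Hist1h1t and Hist1h4c, with the nearest regions 26577, 18037, 13806 and 12071 bp away. Hist1h1c, with peaks in both replicates, lay beyond this run. Hist1h3c, Hist1h2bb and Hist1h4b, farther along, had nearest regions at 5457, 3909 and 3669 bp. The pair Hist1h2ba and Hist1h2aa lay at the end of the block, 169352 and 170046 bp from a region, and Hist1h2al was the tenth.

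Hist1h1t, Hist1h2ba and Hist1h2aa encode testis-type histones, and none of the 3 had a peak. The other 7 genes without a region are core histone genes for H2A, H2B, H3 and H4, among them the isolated Hist1h2al. Their start sites were mostly CpG-rich, with values over all 10 genes from 2.90 to 7.29 and a median of 5.29 per 100 bp, against 6.49 at genes with peaks in both replicates. Repeated words did not set the 10 apart as the most repetitive genes. They ranged from 0.104% at Hist1h1t to 28.3% at Hist1h2al, with 16.7% at Hist1h3c, 15.5% at Hist1h2ac, 15.2% at Hist1h2bb, 8.33% at Hist1h2aa, 8.02% at Hist1h4b, 7.88% at Hist1h2bc, 7.61% at Hist1h2ba and 6.95% at Hist1h4c. The range at genes with peaks in both replicates was 0.258% to 31.8%, and the part of repeats in the missing peaks was not tested.

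All Hist2 genes were occupied in at least 1 replicate. Hist2h2ab, Hist2h2ac and Hist2h2be shared a region at chr3:96023802-96025728 with 3.35 in replicate 1 and 4.37 in replicate 2, a mean of 3.86 ± 0.720 (SD, n = 2). Hist2h2aa2, an H2A gene, had 3.76 and 5.56 (4.66 ± 1.28, SD, n = 2). The replicate 2 value was the highest of any histone cluster gene. It came from a region at chr3:96042722-96043744 that overlapped only the 3′ end of the gene and reached into the neighbouring pseudogene Hist2h3c2. Its duplicate Hist2h2aa1 had a peak of 4.06 in replicate 2 alone, shared with Hist2h3c1.

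Hist2h4, an H4 gene, had 3.10 and 4.19. Hist2h3b, an H3 gene, had 3.12 in replicate 1 alone, and this peak was shared with Hist2h2bb. Hist2h2bb, an H2B gene annotated over 9281 bp, had its replicate 2 peak of 4.01 in a different region near its end, so that its count as occupied in both replicates rests on separate peaks. This was the only such gene, since the peaks of the replicates overlapped each other at 37 of the 38.

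The small clusters were occupied in both replicates. Hist3h2ba, an H2B gene at 58762413 to 58763032 of chromosome 11, had 3.66 and 4.96, a mean of 4.31 ± 0.918 (SD, n = 2). Hist3h2a, its H2A neighbour at 58768187 to 58770176, had 3.57 and 3.39. Hist4h4, at 136752589 to 136752900 of chromosome 6, had 2.80 and 4.74 (3.77 ± 1.37, SD, n = 2). Its replicate 1 value was the lowest of that replicate among the histone genes, while its replicate 2 value was among the higher ones. Words with more than 2 copies made up 0.619%, 1.69% and 3.51% at the 3 genes. Words with more than 1 copy made up 7.59%, 5.97% and 3.69%, and 33.6% within the body of Hist3h2ba alone.

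Cover of the gene bodies by RYBP peaks was uneven. Replicate 1 covered the whole body at 12 of its 43 genes with a peak, at least 50% of it at 23 and none of it at 5, and the median cover was 64.3%. Replicate 2 covered the whole body at 23 of its 52 genes, at least 50% at 33 and none at 2, with a median of 90.02%.

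Peaks at histone genes had a higher median width than all peaks of the same list, with nearness to genes and CpG content not matched. Counting each peak a single time, replicate 1 had 30 distinct peaks at histone genes with a median width of 893 bp (767 bp over all its peaks), and replicate 2 had 34 with a median of 989.5 bp (764 bp). The 38 merged regions had a median width of 1115.5 bp, against 767 bp for all merged regions, and 25 of them were found in both replicates. A region was shared by up to 3 genes, and 19 of the 38 were shared. Coding sequence was overlapped at 36 of the 38 regions.

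By gene part, the 500 bp before the start were overlapped at 43.3% of histone genes in replicate 1 and 61.2% in replicate 2, against 23.8% and 33.8% of all genes. The coding sequence was overlapped at 55.2% and 71.6%, against 28.0% and 35.4%. The contrast was larger past the gene end. There the next 500 bp were overlapped at 28.4% and 44.8% of histone genes and at 3.03% and 3.42% of all genes. Gene length and the nearness of other genes were not matched in this comparison, and the same peak was often counted at neighbouring histone genes.

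Coverage by distance from the start site was close to that of CpG-rich genes near the start. It was highest 50 bp into the histone genes, at 44.8% of genes in replicate 1 and 65.7% in replicate 2. For all CpG-rich start sites the highest coverage was 49.9% at 250 bp and 66.6% at 200 bp. The median peak midpoint was 203 bp past the start in replicate 1 and 98.5 bp in replicate 2. At some histone genes, such as Hist1h4k and Hist4h4, the annotated gene of 312 bp holds 309 coding bases. Distances there run from the start of coding and not from a known transcription start.

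**Figure D4:**
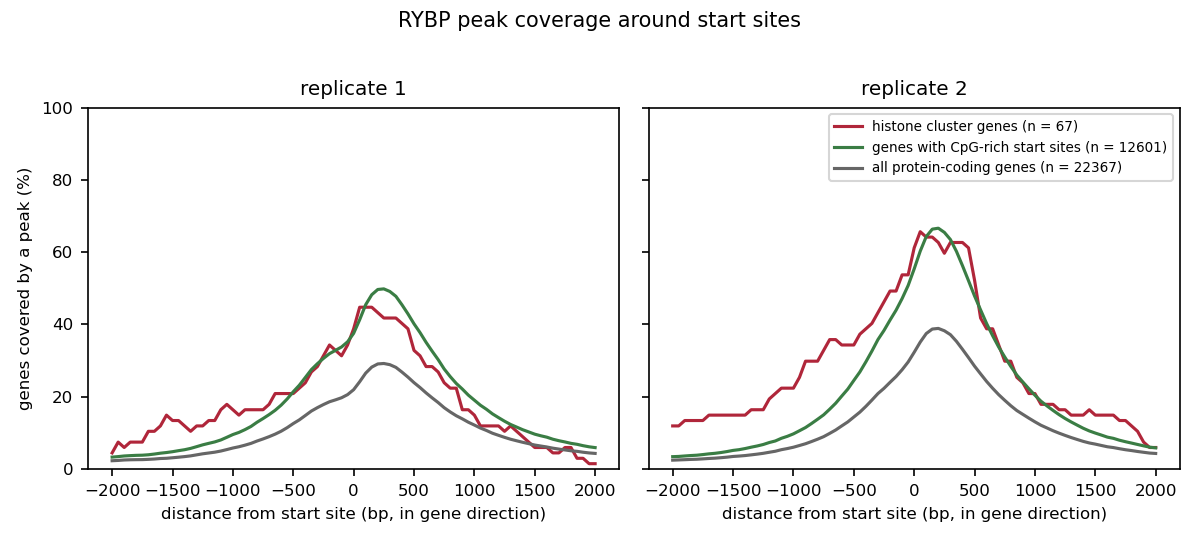
Percent of genes covered by a RYBP peak (y axis) at each distance from the start site in the direction of the gene (x axis, bp), for histone cluster genes, CpG-rich start sites and all protein-coding genes, with a panel for each replicate. Histone genes reach 44.8% and 65.7% at 50 bp, near the 49.9% and 66.6% of CpG-rich start sites and above the 29.2% and 38.9% of all genes.

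The stem-loop at the mRNA end, bound by SLBP, marks genes of this class and does not enter the rule. It was sought as the letters CTTTTNAGA or CTTTTNAGG with a pairing stem within 150 bp after the coding end. The latter core was added after no H4 gene had matched the former. A match was found at 59 of the 67 genes, with the middle of its core 33 to 70 bases after the coding end. The forms carried by more than 2 genes are shown to present the element, with the 6 bases of each stem arm in capitals and the 4 loop bases in lower case, in mm9 and written as DNA.
stem-loop of 36 genes: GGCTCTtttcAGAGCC
stem-loop of 9 genes: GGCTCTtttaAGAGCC
stem-loop of 8 genes: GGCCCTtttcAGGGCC

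The 12 matching H4 genes carried the CTTTTNAGG core, and all 47 other matches the CTTTTNAGA core. No match was found at Hist1h3g, Hist1h4a, Hist1h2al and Hist2h2be, nor at Hist1h2bp, Hist1h2bq, Hist1h2br and Hist2h2bb, whose annotated coding ends lie far from their starts. RYBP peaks overlapped the stem-loop by at least 1 bp at 22 genes in replicate 1 and 35 in replicate 2. Both replicates overlapped it at 17 genes and neither did at 19.

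Histone genes outside the rule gave values that overlapped those of the cluster genes and in part exceeded them. Replacement variants are histones made throughout the cell cycle or in particular cells, from polyadenylated mRNAs as a rule. Of 12 found in the annotation (of 14 listed), 9 had a merged region and 6 peaks in both replicates, beside 56.1% and 39.6% of all genes and 83.3% and 61.1% of CpG-rich genes, with medians of 3.74 in replicate 1 and 4.51 in replicate 2. H2afy, which encodes macroH2A, had 4.94 and 5.08. H1fx had 3.98 and 4.72, H2afy2, for the other macroH2A, 3.77 and 5.84, H2afx, of the DNA damage response, 3.72 and 3.803, and H2afz, for H2A.Z, 3.48 and 4.30. H3f3a, for H3.3, had 2.92 and 3.33. The replicate 1 value of H2afy and the replicate 2 value of H2afy2 lay above any histone cluster gene in that replicate. Without a region were H3f3b, the other H3.3 gene, the oocyte gene H1foo and the spermatid gene H1fnt.

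Of 16 genes for factors of histone transcription and mRNA processing (of 17 listed), 10 had a merged region and 7 peaks in both replicates, with medians of 2.89 and 3.84. These counts stand beside the same 56.1% and 39.6% of all genes and 83.3% and 61.1% of CpG-rich genes. E2f1, for a transcription factor of the S phase programme, had 5.57 in replicate 1, above any histone cluster gene in that replicate, and 4.27 in replicate 2. Lsm11, of the U7 particle that cleaves histone pre-mRNA, had 3.39 and 3.84, and Sympk, for the scaffold protein symplekin, 3.24 and 3.69. Npat, for the activator of histone loci, and Hinfp, for the H4 promoter factor, had peaks of 3.55 and 3.22 in replicate 2 alone. Slbp, Casp8ap2, Lsm10, Zfp473, Cpsf2 and Cstf2 had none. Counts in both lists were small, and no difference from the histone cluster genes was tested.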

How the data were processed

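RYBP ChIP-seq of FLK1+ cells gave 2 replicates, grouped and numbered by the labels; 2 input samples were not analysed here. The labels give day 3.75, whereas the methods give a slightly later day, and the series design text speaks of SCL ChIP although antibody and title name RYBP. Following the methods and the submitters' processing notes, paired reads of 37 bases were aligned to mm9 with Bowtie 1.1.2b, duplicates and reads with more than 2 placements were removed, and broad peaks were called in each replicate with MACS2 2.0.10. The deposited lists give each peak's fold enrichment (a linear ratio to local background), −log10 p-value, −log10 q-value and a score derived from q. The authors' merged file gives positions only, and all 22409 regions equalled the union of both lists after moving replicate 2 starts by 1 bp. The peak lists carry no read depth. The paper's reporting summary gives total and mapped reads of the RYBP samples, higher for the first sample than for the second. Depth was not used here.

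Overlaps, base composition, word copies and motifs were computed with Python 3.11.15, pandas 2.3.3, numpy 2.4.6 and numba 0.67.0 on the mm9 reference and its GENCODE annotation. Genes lying within 500 kb of each other formed a block. With 2 replicates of 1 group no test was made, and the main counts stand beside the same counts over all genes. Alternatives were other gene windows, stricter peaks, and subsets of genes or replicates (effects are given at the end). Members and lists were chosen with earlier results of these data known. Genes named by rule were all members outside chromosome 13, all H1 genes, the 5 highest chromosome 13 core genes, unoccupied genes and genes called in 1 replicate (up to 15 of each), testis-type genes and those of the 3 widest regions; the remaining members were named after their values were seen. Pseudogene entries were left out.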

Additional observations from a re-analysis of the deposited data

How the results depend on the processing

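Most alternatives left the counts within 1.5 times their values. The shares of histone genes with a merged region and with peaks in both replicates were 80.6% and 50.7% for the gene body alone (53.9% and 37.04% of all genes), 89.6% and 73.1% with 5 kb flanks (59.5% and 43.4%), 80.6% and 53.7% for 500 bp on each side of the start site (48.1% and 32.7%), 85.1% and 53.7% for fold enrichment of at least 3 (53.2% and 34.3%), and 77.6% and 49.3% for the coding sequence alone (38.3% and 25.1%), a choice made after seeing the data. Where at least 50% of the gene body had to be covered, a merged region remained at 36 genes (53.7%) and peaks in both replicates at 20 (29.9%), against 3.76% and 2.20% of all genes. Such cover depends on gene length, which was not matched in this comparison. With −log10 q of at least 2, a merged region was present at 70.1% (46.6% of all genes) and peaks in both replicates at 23 genes (34.3%, against 29.9%). Without replicate 1 or replicate 2 in turn, the share with a region ranged from 64.2% to 77.6% (42.9% and 52.7% of all genes) and the median fold enrichment from 3.38 to 4.15. In genes no longer than the longest member, Hist1h2be at 37383 bp, the background share with a merged region was 48.5%. This limit kept 16154 genes and did not match the far shorter length of the other members. The subset without the 8 duplicated genes was also chosen after seeing the data. No paired analysis was possible because only 1 group, the RYBP ChIP, entered the counts and its numbers pair with inputs not analysed here. Depth and the loss of reads in repeats limit what a missing peak can show.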

Other observations

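Protein-coding genes of other families lie within the histone blocks. In the proximal block all 3 of them had peaks in both replicates, with fold enrichments of 3.52 in replicate 1 and 4.02 in replicate 2 at Zfp184, a zinc finger gene, 4.09 and 4.91 at Pom121l2, and 4.20 and 4.13 at Prss16, which encodes a thymus serine protease. In the distal block 2 of 7 had a merged region, with peaks in replicate 2 alone of 3.45 at Gm17658 and 3.22 at Hfe, the hereditary haemochromatosis gene, and none at Trim38, Slc17a1, Slc17a2, Slc17a3 and Slc17a4. The median CpG content of these neighbours was 4.80 per 100 bp in the proximal and 1.70 in the distal block, and 2 of the 3 and 1 of the 7 had CpG-rich start sites. Over all protein-coding genes, 56.1% had a merged region and 39.6% peaks in both replicates. Gm17658 lies beside Hist1h4d and shares its peak. Of the merged regions within the blocks, 13 of 24 proximal and 16 of 18 distal regions lay at histone genes. The 3 histone entries annotated as pseudogenes, Hist2h3c2, Hist3h2bb-ps and Hist1h2aj, each had 1 merged region with 1 peak in each replicate. These genes were not members of the histone list and were named after their values were seen.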
